A study of Mus musculus with 50 samples.

Results

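The p53 pathway of RAW264.7 macrophages was followed through 10 genes: Trp53, which encodes p53 itself, and the p53 targets Mdm2, Cdkn1a, Ccng1, Phlda3, Zmat3, Plk2, Btg2, Trp53inp1 and Eda2r. They were taken by gene symbol from the deposited tables, where each symbol had a row of its own, so 10 of 55416 genes are described. All 10 passed the filter on low counts in both batches that were tested.

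RAW264.7 is a mouse macrophage line grown from a tumour that a leukaemia virus had induced. The series holds 50 libraries of polyadenylated RNA from lines in which SGK1, SGK3 or both had been targeted with CRISPR, and from a control line, labelled WT, that carried an empty vector sgRNA (called a control sgRNA in the design text). SGK1 and SGK3 are serum- and glucocorticoid-regulated kinases, relatives of AKT. DMXAA, an agonist of the mouse innate immune adaptor STING, was given at 10 μg/mL, and RNA was taken after 2 hours. Batch b1 (26 libraries) held control cells at rest (3), control cells with DMXAA (5), control cells given the SGK inhibitor Sanofi-14h at 500 nM for 2 hours before DMXAA (5), SGK3 KO cells at rest (3), SGK3 KO cells with DMXAA (5) and SGK1/SGK3 double KO (dKO) cells with DMXAA (5). Batch b2 (20 libraries) held control cells at rest (3) and with DMXAA (4), SGK1 KO cells at rest (3) and with DMXAA (4), and dKO cells at rest (3) and with DMXAA (3). The 4 libraries of b3, marked as reruns, are SGK1 KO with DMXAA (S), dKO with DMXAA (V and W) and a library of control cells (J). J's title says that it was not treated and its treatment field says DMXAA. J was put in no group. Each genotype is 1 line, so a genotype and the history of its line cannot be told apart. The labels name a DMSO vehicle for the pretreatment without saying which libraries received it. They also do not say that replicates came from separate cultures, so the p-values rest on a spread between libraries that may be only technical.

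The protein p53 is a transcription factor that is held at a low level in unstressed cells, because one of its own targets, the ubiquitin ligase MDM2, marks it for degradation. When DNA damage or other stress releases it, p53 binds response elements in its target genes and raises transcripts that stop the cell cycle, repair DNA, change metabolism or start cell death. Regulation of p53 is largely a matter of protein stability, so the level of Trp53 mRNA is not a measure of p53 activity, and many p53 targets also answer other transcription factors, among them those activated by inflammatory signals in macrophages.

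The promoter windows of 4 of the genes are printed here because they hold a p53 half-site, the unit from which p53 response elements are built: 3 purines, a C, A or T at 2 positions, a G and 3 pyrimidines. The motif reads the same on both strands, so a search of 1 strand finds all matches. RefSeq windows on GRCm38.p6, from 250 bases before to 50 bases after a transcript start, were found for 8 of the 10 genes; Zmat3 and Trp53inp1 had no entry. Capitals mark exact half-sites, and each sequence runs 5′ to 3′ on the gene's own strand.
Trp53 (chr11:69580109-69580408, + strand): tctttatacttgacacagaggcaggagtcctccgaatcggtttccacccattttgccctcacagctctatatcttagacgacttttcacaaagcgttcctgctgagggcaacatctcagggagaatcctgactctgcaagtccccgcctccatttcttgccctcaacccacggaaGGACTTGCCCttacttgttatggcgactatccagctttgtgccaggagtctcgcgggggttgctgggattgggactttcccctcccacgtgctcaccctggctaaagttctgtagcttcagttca
Mdm2 (chr10:117710709-117711008, - strand): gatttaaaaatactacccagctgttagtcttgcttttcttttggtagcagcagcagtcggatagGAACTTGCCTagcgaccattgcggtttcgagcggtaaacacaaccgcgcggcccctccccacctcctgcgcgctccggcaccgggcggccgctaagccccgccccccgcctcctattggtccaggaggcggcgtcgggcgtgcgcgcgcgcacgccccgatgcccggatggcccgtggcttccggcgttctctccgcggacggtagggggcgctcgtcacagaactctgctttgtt
Cdkn1a, upstream start (chr17:29090729-29091028, + strand): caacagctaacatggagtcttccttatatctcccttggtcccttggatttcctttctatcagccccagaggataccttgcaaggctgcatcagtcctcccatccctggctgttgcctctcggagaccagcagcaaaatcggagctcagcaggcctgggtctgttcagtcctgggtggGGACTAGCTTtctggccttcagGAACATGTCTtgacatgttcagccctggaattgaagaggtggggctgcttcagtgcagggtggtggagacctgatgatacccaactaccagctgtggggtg
Ccng1 (chr11:40755237-40755536, - strand): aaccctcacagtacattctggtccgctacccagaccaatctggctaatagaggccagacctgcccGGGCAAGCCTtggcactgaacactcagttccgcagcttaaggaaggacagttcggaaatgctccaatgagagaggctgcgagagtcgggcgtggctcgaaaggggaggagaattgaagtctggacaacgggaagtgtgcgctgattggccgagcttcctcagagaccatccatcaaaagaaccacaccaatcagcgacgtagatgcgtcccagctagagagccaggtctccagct
The half-site of Trp53 began 75 bases before the transcript start, that of Mdm2 186 bases before it and that of Ccng1 185 bases before it. Cdkn1a had 2 half-sites, 73 and 51 bases before its upstream start, close enough together to count as a pair (at most 13 bases between them). The windows of Phlda3, Plk2, Btg2 and Eda2r and the second Cdkn1a window held no exact half-site. Across 32851 windows of the same length, 8.356% held an exact half-site, and 0.07306% held an exact pair. A pair with at most 1 mismatch in all was present in 0.6271% of windows. The Ccng1 window and the upstream Cdkn1a window were among them. This Cdkn1a window held 2 such pairs. They were the exact pair, and GAACATGTCT with the bases tgacatgttc directly after it, which have 1 mismatch. These matches describe letters in a window, and no binding of p53 was measured.

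The 10 genes spanned a wide range of transcript levels, compared here as deposited TPM, a scale that corrects for transcript length. Averaged over the 46 libraries of b1 and b2, Trp53 stood highest at 256 TPM and was above 97% of the genes tested. Cdkn1a followed at 148 TPM, then Mdm2 at 59.8 and Ccng1 at 47.7. In the middle lay Btg2 at 14.9 TPM and Zmat3 at 12.5. Phlda3 (1.37), Plk2 (1.14), Trp53inp1 (0.713) and Eda2r (0.285) were the lowest of the 10. They were above 37.2%, 35.7%, 31.5% and 22.6% of the genes tested. The order was firm between some neighbours and loose between others. Trp53 exceeded Cdkn1a in 46 of 46 libraries, Ccng1 exceeded Btg2 in 46 and Zmat3 exceeded Phlda3 in 46, whereas Mdm2 exceeded Ccng1 in 34, Btg2 exceeded Zmat3 in 31, Phlda3 exceeded Plk2 in 26 and Plk2 exceeded Trp53inp1 in 30. By the coordinates of the deposited tables (GRCm39) all 10 are protein-coding genes: Trp53 (chromosome 11, 69471185 to 69482699), Mdm2 (10, 117524780 to 117546663), Cdkn1a (17, 29309950 to 29319701), Ccng1 (11, 40639379 to 40646138) and Phlda3 (1, 135693857 to 135696874). The others are Zmat3 (3, 32388941 to 32420163), Plk2 (13, 110531580 to 110537378), Btg2 (1, 134002908 to 134006858), Trp53inp1 (4, 11156431 to 11174379) and Eda2r (X, 96377446 to 96420822). Of these spans only that of Cdkn1a met another gene of the table, 1700023B13Rik on the opposite strand, which shared 1046 bases and averaged 1.32 TPM.

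Total counts ran from 57859509 to 101068327 per library in b1 and from 63461414 to 112007140 in b2. Libraries of b2 varied far more than those of b1: the common biological coefficient of variation was 0.473 in b2 and 0.159 in b1, and each batch was therefore fitted alone. In 4 b2 libraries (E and F of resting SGK1 KO, P of SGK1 KO with DMXAA and X of dKO with DMXAA) log2 CPM, less its mean over the batch, had a slope above 0.1 per doubling of transcript length; they and 2 with lesser slopes (0.0873 and 0.0868), H of resting dKO and R of SGK1 KO with DMXAA, which an earlier look at these data had listed, are called the length-trend libraries. Slopes of the opposite sign, down to −0.181 in resting control library B, were left in, so leaving out the length-trend libraries removes 1 side of the trend. It also leaves resting SGK1 KO cells with 1 library (D), which is then assumed to vary like the other groups. F, P, R and X detected 15041 to 15342 genes and the other b2 libraries 16387 to 17788, and the part of this difference in the knockout results was not tested. Transcripts of Sgk1 lay at 3.07 to 6.02 CPM in the dKO and 46.4 to 54.8 CPM in the control cells of b1 with DMXAA, and at 1.71 to 6.67 CPM in the SGK1 KO and dKO and 24.7 to 38.1 CPM in the control cells of b2 with DMXAA. At rest Sgk1 was at 2.99, 2.31 and 1.04 CPM in control and 0.246, 0.148 and 1.58 CPM in SGK1 KO cells of b2, where the third value, of library F, lay among the controls. Transcripts of Sgk3 were as high in SGK3 KO cells with DMXAA (99.4 to 112 CPM) as in control cells (97.4 to 109 CPM), so mRNA does not check that label. The 9 macrophage markers summed to 6690 to 9076 TPM in b1 and 7578 to 13439 TPM in b2, and all but Mrc1 (at most 0.333 TPM) were above 1 TPM in some library. The 19 markers of fibroblasts, epithelium, endothelium, T cells, B cells and erythroid cells summed to at most 2.48 TPM in b1 and 4.75 TPM in b2, and 10 and 6 of them were at 0 in all libraries of b1 and b2, among them Krt18, Cdh1 and Cd2 in both. In b1 that sum was 0.172 to 0.788 TPM in resting control cells, 1.28 to 2.48 in control cells with DMXAA, 0.811 to 1.77 with Sanofi-14h, 0.332 to 0.81 in SGK3 KO and 0.179 to 0.513 in dKO cells with DMXAA; the part of these traces in the results was not tested.

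DMXAA was accompanied by more Trp53 mRNA. In b1 the resting control libraries held 192, 210.4 and 197 CPM of Trp53 (counts scaled to the total and composition of the library), and the control libraries with DMXAA 353, 359.8, 328, 314 and 302 CPM. SGK3 KO cells held 224, 224 and 221 CPM at rest and 319, 293, 322, 327 and 294 CPM with DMXAA. In both lines every library with DMXAA was above every resting library. Trp53 rose by 0.73 ± 0.057 (log2 fold change ± SE) in control cells (edgeR adjusted p = 2.93e-12) and by 0.48 ± 0.056 in SGK3 KO cells (edgeR adjusted p = 3.2e-08). A change is said to pass, or to be called, where the p adjusted over all genes tested was below 0.05. These are bulk libraries, in which fewer cells holding a transcript and less transcript per cell cannot be told apart.

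With the inhibitor, Trp53 was lower under DMXAA. The 5 control libraries given Sanofi-14h before DMXAA held 243, 277, 277, 259 and 267 CPM, all of them below the control libraries with DMXAA alone and above those at rest. The difference from DMXAA alone was −0.32 ± 0.048 (edgeR adjusted p = 6.32e-06). In dKO cells with DMXAA Trp53 was at 303, 288, 292, 320.0 and 298 CPM, a range that overlapped the controls. Its difference of −0.14 ± 0.048 passed (edgeR adjusted p = 0.0236), but the call was lost without control replicate 1 (−0.12) or 2 (−0.11), without dKO replicate 2 (−0.13) or 3 (−0.13), and in a limma fit of log2(TPM + 0.5), named the fit of TPM from here on. SGK3 KO and control cells did not pass at rest (0.16 ± 0.062, edgeR adjusted p = 0.111) or with DMXAA (−0.092 ± 0.048, edgeR adjusted p = 0.177).

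In b2 the Trp53 values pointed the same way with a wider spread. Resting libraries held 195, 187 and 181 CPM in control, 195, 171 and 153 CPM in SGK1 KO and 195, 174 and 192 CPM in dKO cells. With DMXAA the values were 244, 263, 251 and 260.1 CPM, 255, 234, 247 and 172 CPM and 228, 258 and 179 CPM. The control groups did not overlap, while 1 library of each knockout with DMXAA, R of SGK1 KO and X of dKO, lay within its resting group. The change was 0.44 ± 0.12 in control cells (edgeR adjusted p = 0.0545), 0.39 ± 0.12 in SGK1 KO cells (edgeR adjusted p = 0.0468) and 0.25 ± 0.13 in dKO cells (edgeR adjusted p = 0.345). The SGK1 KO call was lost when any 1 of O, P, Q, E or F was left out, at values from 0.33 to 0.40. The control change was called with RLE size factors, by DESeq2 and without the length-trend libraries (0.44 each). Without the length-trend libraries the dKO change was called as well (0.33). Between the batches the control response did not pass a test of its difference (−0.29 ± 0.13, edgeR adjusted p = 0.299).

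Mdm2 was the target that rose under DMXAA in every line and batch tested. MDM2 is the ubiquitin ligase that degrades p53, and its gene is a classic p53 target. Control libraries of b1 went from 68.5, 64.8 and 62.6 CPM at rest to 100.1, 104, 106, 99.8 and 93 CPM with DMXAA, and SGK3 KO libraries from 75.3, 72.2 and 78 to 115, 105, 112, 109 and 111 CPM. The resting and DMXAA libraries were fully separate in both lines. The rise was 0.62 ± 0.049 on the log2 scale in control cells (edgeR adjusted p = 4.96e-12) and 0.55 ± 0.049 in SGK3 KO cells (edgeR adjusted p = 1.16e-10).

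In b2 Mdm2 at rest was at 65.2, 57.9 and 68.5 CPM in control, 66, 67.7 and 71.4 CPM in SGK1 KO and 69.3, 64.4 and 65.3 CPM in dKO cells. With DMXAA it was at 91.6, 87.1, 99.3 and 100.3 CPM, 90.9, 109.7, 95.8 and 79.5 CPM and 90.4, 87.5 and 93 CPM. Again no DMXAA library fell among its own resting libraries. Mdm2 rose by 0.57 ± 0.093 in control cells (edgeR adjusted p = 0.000581), by 0.46 ± 0.093 in SGK1 KO cells (edgeR adjusted p = 0.0024) and by 0.44 ± 0.099 in dKO cells (edgeR adjusted p = 0.00706). The fit of TPM did not call the last 2 of these, at 0.33 and 0.41 on its log2(TPM + 0.5) scale, nor did a fit of the 2 SGK1 KO groups alone. Responses did not pass a test of their difference between SGK3 KO and control (−0.071 ± 0.069, edgeR adjusted p = 0.806), SGK1 KO and control (−0.11 ± 0.13, edgeR adjusted p = 0.882), dKO and control (−0.12 ± 0.13, edgeR adjusted p = 0.949) or between batches in control cells (−0.05 ± 0.096, edgeR adjusted p = 0.963).

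Between genotypes Mdm2 differed little. SGK3 KO cells were higher than control cells at rest by 0.20 ± 0.054 (edgeR adjusted p = 0.0109) and with DMXAA by 0.13 ± 0.042 (edgeR adjusted p = 0.0199). The call at rest was lost without control replicate 3 (0.18) or SGK3 KO replicate 3 (0.18), and the call with DMXAA without control replicate 5 (0.10) or SGK3 KO replicate 1 (0.12); neither was called in the fit of TPM. With Sanofi-14h before DMXAA the 5 libraries held 100.3, 96.9, 97.1, 96.1 and 92.4 CPM, which overlapped DMXAA alone and did not pass (−0.059 ± 0.042, edgeR adjusted p = 0.361). The dKO libraries of b1, at 112, 104, 103, 104 and 98.8 CPM, did not differ from control cells by the test either (0.051 ± 0.042, edgeR adjusted p = 0.414).

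Cdkn1a rose with DMXAA in b1 and not in b2. It encodes p21, which holds cyclin-dependent kinases inactive and is the main arm of the p53 cell cycle arrest. Control libraries of b1 went from 131, 124 and 121 CPM at rest to 233, 220.1, 227, 214 and 207 CPM with DMXAA, and SGK3 KO libraries from 128, 137 and 122 to 186, 182, 204, 191 and 216 CPM. In each line all DMXAA libraries were above all resting ones. The rise was 0.81 ± 0.063 in control (edgeR adjusted p = 3.15e-12) and 0.60 ± 0.063 in SGK3 KO cells (edgeR adjusted p = 3.45e-09).

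In control cells of b2 Cdkn1a was at 137, 134 and 133 CPM at rest and 141, 131, 125 and 138 CPM with DMXAA. These 2 groups overlapped, and the change was −0.008 ± 0.13 on the log2 scale. The response of b2 minus that of b1 was −0.81 ± 0.14 (edgeR adjusted p = 0.000169, joint fit of 46 libraries). Batch b2 control cells started higher on average, at 135 ± 1.92 CPM (mean ± SD, n = 3) against 126 ± 4.89 CPM in b1 (n = 3), and ended lower, at 134 ± 7.45 (n = 4) against 220.3 ± 10.3 CPM (n = 5); CPM of the 2 batches were scaled separately.

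Under DMXAA, Cdkn1a was lower than in control cells of the same batch in each knockout of b1 and b2 and with the inhibitor. In b1 the dKO libraries held 192, 163, 176, 199 and 203 CPM and the Sanofi-14h libraries 162, 168, 171, 180.1 and 169 CPM, both groups wholly below the controls. The differences from control cells were −0.24 ± 0.053 in dKO (edgeR adjusted p = 0.000716), −0.37 ± 0.053 with Sanofi-14h (edgeR adjusted p = 3.61e-06) and −0.17 ± 0.053 in SGK3 KO (edgeR adjusted p = 0.0174), whose libraries overlapped the controls. The SGK3 KO call was lost without control replicate 1 (−0.15), without SGK3 KO replicate 1 (−0.15) or 2 (−0.15), and in the fit of TPM. At rest SGK3 KO and control cells overlapped (0.042 ± 0.069, edgeR adjusted p = 0.837).

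In b2 the SGK1 KO libraries held 109.9, 96.1 and 83.2 CPM at rest and 79.3, 72.1, 79.99 and 58.9 CPM with DMXAA, and the dKO libraries 108, 94.9 and 107 and 102, 99.6 and 66.4 CPM. Every one of these 13 libraries lay below every control library of b2. With DMXAA the difference from control cells was −0.88 ± 0.12 in SGK1 KO (edgeR adjusted p = 4.4e-05) and −0.58 ± 0.13 in dKO (edgeR adjusted p = 0.00468). Libraries F, R and X, which are among the 4 with the fewest genes detected, were the lowest of their groups. Leaving out any 1 library, or the 6 length-trend libraries together, did not end either DMXAA call. Adding the b3 libraries did: S, V and W held 136, 140.0 and 133 CPM, at the level of the b2 controls, and with them the differences were −0.65 (edgeR adjusted p = 0.0566) and −0.31 (edgeR adjusted p = 0.452). Library J of b3, control cells whose treatment is unclear and which entered no fit, held 134 CPM.

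At rest the Cdkn1a difference was −0.48 ± 0.14 in SGK1 KO (edgeR adjusted p = 0.0448) and −0.38 ± 0.14 in dKO cells, which did not pass (edgeR adjusted p = 0.219). The dKO difference was called in the joint fit of both batches (−0.38) and with its groups fitted alone (−0.39). It was also called without the length-trend libraries (−0.33), but not by DESeq2 or the fit of TPM. Cdkn1a fell with DMXAA in SGK1 KO cells by the test (−0.41 ± 0.13, edgeR adjusted p = 0.0469). Both SGK1 KO calls were fragile. The first was lost without A, B, C, E or F (−0.50 to −0.39) and without the length-trend libraries, with D alone as the resting SGK1 KO arm (−0.29). The second was lost without D, E, O, P, Q or R (−0.46 to −0.30) and was −0.17 with S added (edgeR adjusted p = 0.666). The responses of SGK1 KO and control cells did not pass a test of their difference (−0.40 ± 0.18, edgeR adjusted p = 0.523).

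**Figure D1:**
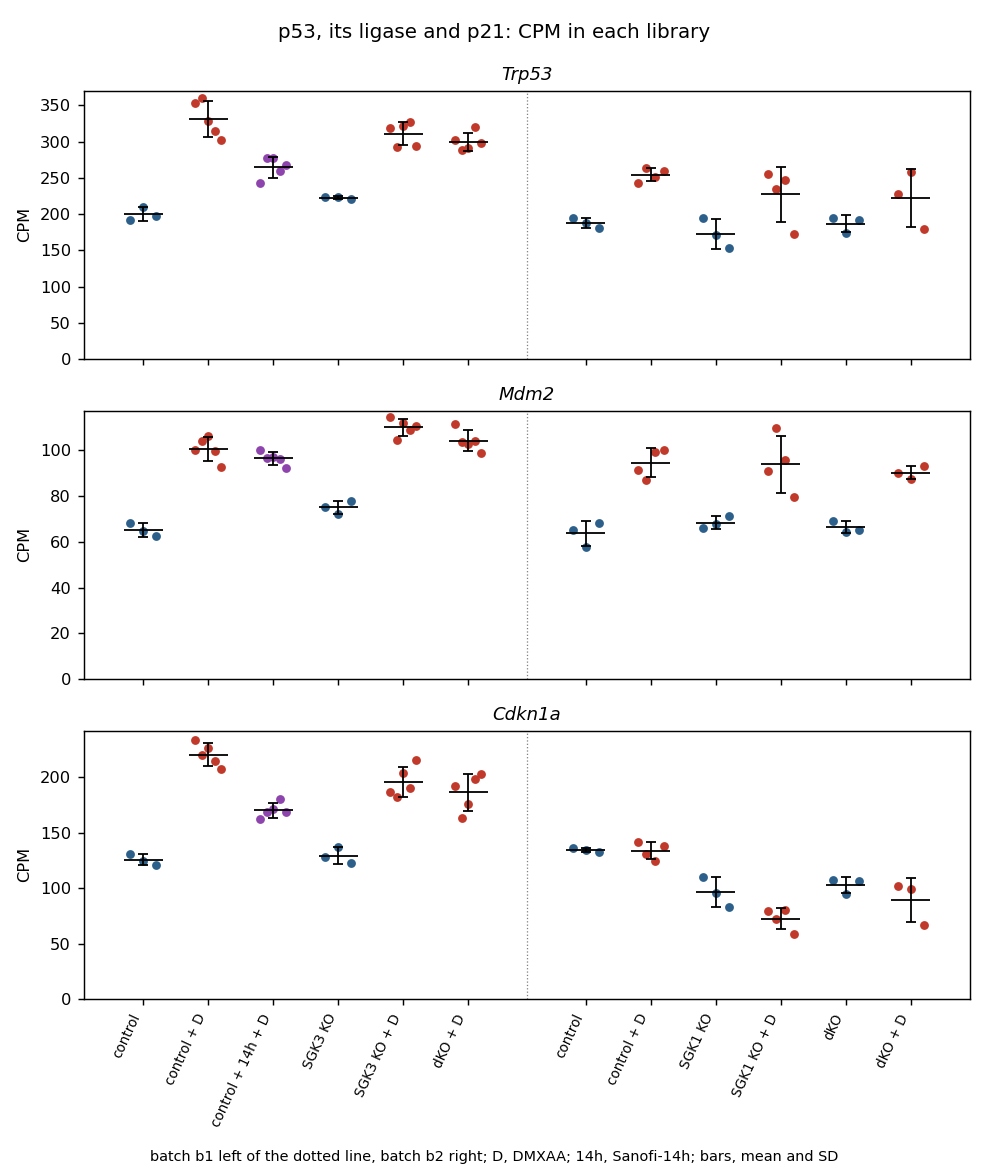
CPM of Trp53, Mdm2 and Cdkn1a in each library (points; blue at rest, red with DMXAA, purple with Sanofi-14h before DMXAA), with the mean and SD of each group; b1 is left of the dotted line and b2 right. Trp53 and Mdm2 stand higher with DMXAA in control cells of both batches, whereas Cdkn1a is higher with DMXAA in b1 (207 to 233 against 121 to 131 CPM) and overlaps between the control groups of b2.

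Zmat3 fell with DMXAA in both b1 lines and was higher in SGK3 KO and dKO cells than in control cells of b1. It encodes a zinc finger RNA-binding protein that controls splicing and transcript stability. Control libraries of b1 went from 51.9, 62 and 55.8 CPM at rest to 40.3, 41.2, 33.4, 34 and 34.8 CPM with DMXAA, and SGK3 KO libraries from 79.5, 82.3 and 81.6 to 53.8, 53.2, 59.5, 54.5 and 68.5 CPM. All DMXAA libraries were below the resting libraries of their line. The change was −0.62 ± 0.087 in control (edgeR adjusted p = 7.32e-07) and −0.49 ± 0.086 in SGK3 KO cells (edgeR adjusted p = 4.36e-05).

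SGK3 KO cells stood above control cells by 0.52 ± 0.098 at rest (edgeR adjusted p = 0.000271) and by 0.66 ± 0.076 with DMXAA (edgeR adjusted p = 5.69e-08). With DMXAA the dKO libraries of b1, at 57.9, 53.1, 52.4, 50.8 and 64.8 CPM, were above every control library (0.60 ± 0.076, edgeR adjusted p = 2.27e-07). Sanofi-14h libraries, at 47.1, 48.7, 47.2, 39.98 and 42.3 CPM, overlapped the controls at 1 end of their range and were higher by 0.29 ± 0.076 (edgeR adjusted p = 0.0051); the fit of TPM did not call this difference (0.27).

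In b2 Zmat3 was at 41.7, 36.1 and 46.6 CPM in resting control cells, 60.1, 69.8 and 69.8 CPM in resting SGK1 KO cells and 49, 62.5 and 53.6 CPM in resting dKO cells. With DMXAA the 3 lines held 35.4, 31, 33.5 and 30.6 CPM, 28.2, 33.7, 32.7 and 33.3 CPM and 35.8, 41.7 and 41.2 CPM. The DMXAA libraries were below the resting libraries of their own line in all 3 lines. The fall passed in SGK1 KO (−1.06 ± 0.11, edgeR adjusted p = 8.14e-07) and dKO cells (−0.48 ± 0.12, edgeR adjusted p = 0.0137) and did not in control cells (−0.35 ± 0.11, edgeR adjusted p = 0.0881). The control fall was called in the joint fit of both batches (−0.34) and without the length-trend libraries (−0.35). The dKO call was lost without T (−0.39), H (−0.36) or I (−0.47), without the length-trend libraries (−0.40), in the fit of TPM (−0.43) and with the 2 dKO groups fitted alone (−0.46). The dKO libraries of b2 were above the control libraries in both conditions. Neither difference passed, at rest (0.41 ± 0.11, edgeR adjusted p = 0.0649) or with DMXAA (0.28 ± 0.11, edgeR adjusted p = 0.101). DESeq2 called the difference at rest (0.42).

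Resting SGK1 KO cells were higher in Zmat3 than resting control cells by 0.68 ± 0.12 (edgeR adjusted p = 0.0012), while with DMXAA the 2 lines overlapped (−0.029 ± 0.1, edgeR adjusted p = 0.918). The response of SGK1 KO minus that of control cells was −0.71 ± 0.15 (edgeR adjusted p = 0.0375). Zmat3 transcripts are 3.26 times as long as those of the median gene, and 2 of the 3 resting SGK1 KO libraries, E and F, had the steepest slopes with transcript length in b2 (0.208 and 0.306). Without the length-trend libraries, with D alone as the resting SGK1 KO arm, the difference at rest was 0.53 (edgeR adjusted p = 0.0966), and the difference of responses −0.63 (edgeR adjusted p = 0.256), neither called. The difference of responses was also lost when any 1 of 11 libraries was left out (A, B, E, F, K, L, M, N, O, Q or R), at values from −0.74 to −0.61, and was −0.65 and not called with S added.

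Ccng1 encodes cyclin G1, a partner of protein phosphatase 2A that feeds back on MDM2. In b1 control libraries it was at 80.5, 87.3 and 84.4 CPM at rest and 81.6, 66.7, 65, 71.3 and 67.6 CPM with DMXAA. Apart from replicate 1, the DMXAA libraries were below the resting ones, and Ccng1 fell by the test (−0.25 ± 0.069, edgeR adjusted p = 0.00358). Under DMXAA it was at 73.5, 87.6, 86.5, 85.3 and 91.3 CPM in SGK3 KO, 82.5, 83.6, 83.7, 77.8 and 90.0 CPM in dKO and 90.5, 88, 79.2, 78.6 and 75.2 CPM with Sanofi-14h. These groups overlapped the control group through its replicate 1 and were higher by 0.27 ± 0.06 (edgeR adjusted p = 0.00101), 0.25 ± 0.06 (edgeR adjusted p = 0.00205) and 0.22 ± 0.06 (edgeR adjusted p = 0.00655). In SGK3 KO cells the change with DMXAA, from 92.2, 87.8 and 89.1 CPM at rest, did not pass (−0.08 ± 0.069, edgeR adjusted p = 0.438).

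In b2 the SGK1 KO libraries went from 109.7, 121 and 141 CPM of Ccng1 at rest to 66.8, 76.4, 73.5 and 98.5 CPM with DMXAA, without overlap, and the fall passed (−0.65 ± 0.14, edgeR adjusted p = 0.00349). Control libraries went from 107, 95.6 and 109 to 93.7, 76.5, 87 and 70.4 CPM, also without overlap, with a change of −0.34 ± 0.14 that did not pass (edgeR adjusted p = 0.26). The control change was called in the joint fit of both batches (−0.33) and without the length-trend libraries (−0.34). The dKO libraries, at 104, 114 and 93.7 CPM at rest and 78.4, 76.9 and 106 CPM with DMXAA, overlapped (−0.26 ± 0.15, edgeR adjusted p = 0.4). Genotypes of b2 did not differ in Ccng1 by the test at rest or with DMXAA (log2 differences of −0.055 to 0.25).

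Phlda3 encodes a small pleckstrin homology domain protein that competes with AKT for membrane lipids, and it was scarce: 19 to 256 counts per library in b1. Resting control libraries held 0.936, 1.62 and 1.89 CPM and those with DMXAA 0.954, 0.277, 0.43, 0.332 and 0.94 CPM, and the groups met at their edges. Phlda3 fell by the test (−1.33 ± 0.36, edgeR adjusted p = 0.00327). SGK3 KO libraries held 2.44, 3.38 and 2.64 CPM at rest and 1.29, 1.45, 1.88, 1.56 and 2.81 CPM with DMXAA, above every control library in the same condition. The difference passed with DMXAA (1.61 ± 0.32, edgeR adjusted p = 0.000244) and did not at rest (0.93 ± 0.39, edgeR adjusted p = 0.153).

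In dKO cells of b1 with DMXAA Phlda3 was at 1.13, 1.01, 1.36, 0.761 and 1.07 CPM, overlapping the controls in 1 library and higher by 0.86 ± 0.32 (edgeR adjusted p = 0.0443). That call was lost when any 1 of 7 libraries was left out (dKO replicates 1, 2, 3 and 5 and control replicates 2, 3 and 4), at values from 0.68 to 0.88. Sanofi-14h libraries held 1.06, 1.44, 1.1, 0.467 and 0.75 CPM and did not pass (0.72 ± 0.32, edgeR adjusted p = 0.113), though they passed without inhibitor replicate 4 (0.89) or control replicate 1 (0.97) or 5 (0.95). In b2 control cells it was at 1.19, 0.926 and 1.01 CPM at rest and 0.594, 0.22, 0.0684 and 0.183 CPM with DMXAA, fully separate, and the change did not pass (−1.97 ± 0.95, edgeR adjusted p = 0.413). SGK1 KO libraries held 1.37, 0.493 and 2.17 CPM at rest and 0.561, 0.212, 0.3 and 0 CPM with DMXAA (−2.33 ± 0.95, edgeR adjusted p = 0.128), and dKO libraries 0.917, 0.316 and 0.345 and 0.687, 1.46 and 0.398 CPM (0.69 ± 1.01, edgeR adjusted p = 0.848). DESeq2 and the fit of TPM called the SGK1 KO change (−2.35 and −1.5), and the dKO change was not called in any fit run.

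Trp53inp1 encodes a stress-induced protein that promotes autophagy and p53 activity, and it too was low. In b1 it was at 1.25, 1.45 and 1.31 CPM in resting control cells and 2.75, 2.47 and 1.92 CPM in resting SGK3 KO cells. With DMXAA control cells held 1.75, 1.51, 1.41, 1.79 and 2.47 CPM, SGK3 KO cells 3.13, 3.51, 2.61, 2.6 and 3.48 CPM and dKO cells 3.98, 2.51, 2.97, 3.09 and 2.59 CPM. Both knockout groups were wholly above the controls. SGK3 KO cells were higher by 0.83 ± 0.23 at rest (edgeR adjusted p = 0.0137) and 0.78 ± 0.17 with DMXAA (edgeR adjusted p = 0.00105), and dKO cells by 0.76 ± 0.17 with DMXAA (edgeR adjusted p = 0.0011). The call at rest was lost without control replicate 1 (0.79) or 3 (0.82) or SGK3 KO replicate 1 (0.72) or 2 (0.80).

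With Sanofi-14h Trp53inp1 was at 2.37, 1.72, 1.53, 1.7 and 1.94 CPM, overlapping DMXAA alone throughout (0.048 ± 0.18, edgeR adjusted p = 0.898). DMXAA itself did not move it past the test in control (0.42 ± 0.21, edgeR adjusted p = 0.123) or SGK3 KO cells (0.37 ± 0.20, edgeR adjusted p = 0.189). In b2 with DMXAA the dKO libraries held 1.8, 2.16 and 5.19 CPM, each above the controls at 0.975, 0.661, 1.34 and 1.15 CPM. The difference of 1.56 ± 0.58 did not pass (edgeR adjusted p = 0.0861), and DESeq2 called it (1.59). At rest the b2 libraries held 0.954, 0.853 and 0.836 CPM in control, 0.875, 0.333 and 1.65 CPM in SGK1 KO and 1.76, 2.49 and 0.742 CPM in dKO cells, and SGK1 KO libraries with DMXAA 0.315, 1.64, 1.62 and 0.869 CPM. No other b2 comparison of Trp53inp1 passed.

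Btg2 encodes an antiproliferative factor that recruits the CCR4-NOT deadenylase to mRNAs. In b1 control cells it was at 32.5, 25.7 and 30.2 CPM at rest and 23.8, 21.5, 21.7, 20.7 and 23.9 CPM with DMXAA, without overlap, and it fell (−0.40 ± 0.12, edgeR adjusted p = 0.00861), a call that was lost without resting control replicate 1 (−0.33). In b2 control cells it was at 11.8, 10.3 and 9.86 CPM at rest and 16.1, 14.9, 13.8 and 18 CPM with DMXAA, again without overlap but in the other direction (0.56 ± 0.25, edgeR adjusted p = 0.353). That rise was called with the control groups fitted alone and without the length-trend libraries (0.56 each). The response of b2 minus that of b1 was 0.97 ± 0.27 (edgeR adjusted p = 0.0367), and this was lost when any 1 of 9 libraries was left out (1 or 3 of resting and 2, 3 or 4 of DMXAA control cells in b1, and B, C, K or N in b2), at values from 0.90 to 0.96.

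Sanofi-14h libraries had the highest mean Btg2 of the b1 groups, 35.3 ± 7.11 CPM (SD, n = 5). These 5 libraries held 47.3, 34.9, 33.3, 31.8 and 28.9 CPM, all above DMXAA alone, with a difference of 0.66 ± 0.10 (edgeR adjusted p = 3.04e-05). The dKO libraries, at 32.1, 27.2, 26.6, 32.8 and 25.8 CPM, were also above every control library (0.37 ± 0.10, edgeR adjusted p = 0.00738). SGK3 KO libraries held 21.8, 22.3 and 23.8 CPM at rest and 24.9, 25.8, 25.3, 25.6 and 33.3 CPM with DMXAA. They lay below the controls at rest (−0.38 ± 0.13, edgeR adjusted p = 0.0734) and above them with DMXAA (0.27 ± 0.10, edgeR adjusted p = 0.0569), and neither difference passed. Their response minus that of control cells was 0.65 ± 0.17 and did not pass in edgeR (adjusted p = 0.0579), while DESeq2 called it (0.63). In b2 Btg2 rose with DMXAA in dKO cells, from 12.6, 12.4 and 12.7 to 22.8, 30.3 and 17.3 CPM (0.90 ± 0.27, edgeR adjusted p = 0.0469). The dKO groups did not overlap, but the call was lost without T, U, G, H or I (0.70 to 0.94). Against b2 control cells, dKO cells did not pass at rest (0.24 ± 0.27, edgeR adjusted p = 0.992). With DMXAA the 2 lines overlapped and did not pass (0.58 ± 0.25, edgeR adjusted p = 0.146). That difference was called in the joint fit of both batches (0.56). It was also called without the length-trend libraries (0.76), a fit in which resting SGK1 KO cells had 1 library. SGK1 KO libraries went from 10.5, 7.38 and 7.82 CPM at rest to 20.6, 11.4, 18 and 7.62 CPM with DMXAA (0.75 ± 0.25, edgeR adjusted p = 0.0619), a change that was called by DESeq2 (0.74), without D, P or R (0.85 to 0.97), with S added (0.91) and, with D alone as the resting arm, without the length-trend libraries (0.89).

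Plk2 encodes polo-like kinase 2, a regulator of centriole duplication whose transcript is also an immediate early response. In b1 control cells it was at 1.19, 1.09 and 0.487 CPM at rest and 2.72, 4.69, 3.47, 3.86 and 2.68 CPM with DMXAA, fully separate, and rose by 1.91 ± 0.30, or 3.77-fold (edgeR adjusted p = 5.33e-06). SGK3 KO cells started higher, at 2.54, 2.28 and 2.42 CPM (1.39 ± 0.32, edgeR adjusted p = 0.00318), and their libraries with DMXAA, at 3.22, 3.47, 3.43, 4.18 and 1.95 CPM, overlapped them (0.43 ± 0.28, edgeR adjusted p = 0.28). The difference between the 2 responses was −1.49 ± 0.40 and did not pass in edgeR (adjusted p = 0.0649); it was called without resting control replicate 1 (−1.72) or DMXAA control replicate 5 (−1.57) and by DESeq2 (−1.51). Sanofi-14h libraries held 1.28, 1.28, 1.83, 3.09 and 2.76 CPM, lower than DMXAA alone by the test with overlap (−0.77 ± 0.24, edgeR adjusted p = 0.0198). That call was lost without inhibitor replicate 1 or 2 or control replicate 2 (−0.64 each). In b2 no Plk2 comparison passed, and its libraries held 0.053 to 1.39 CPM.

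**Figure D2:**
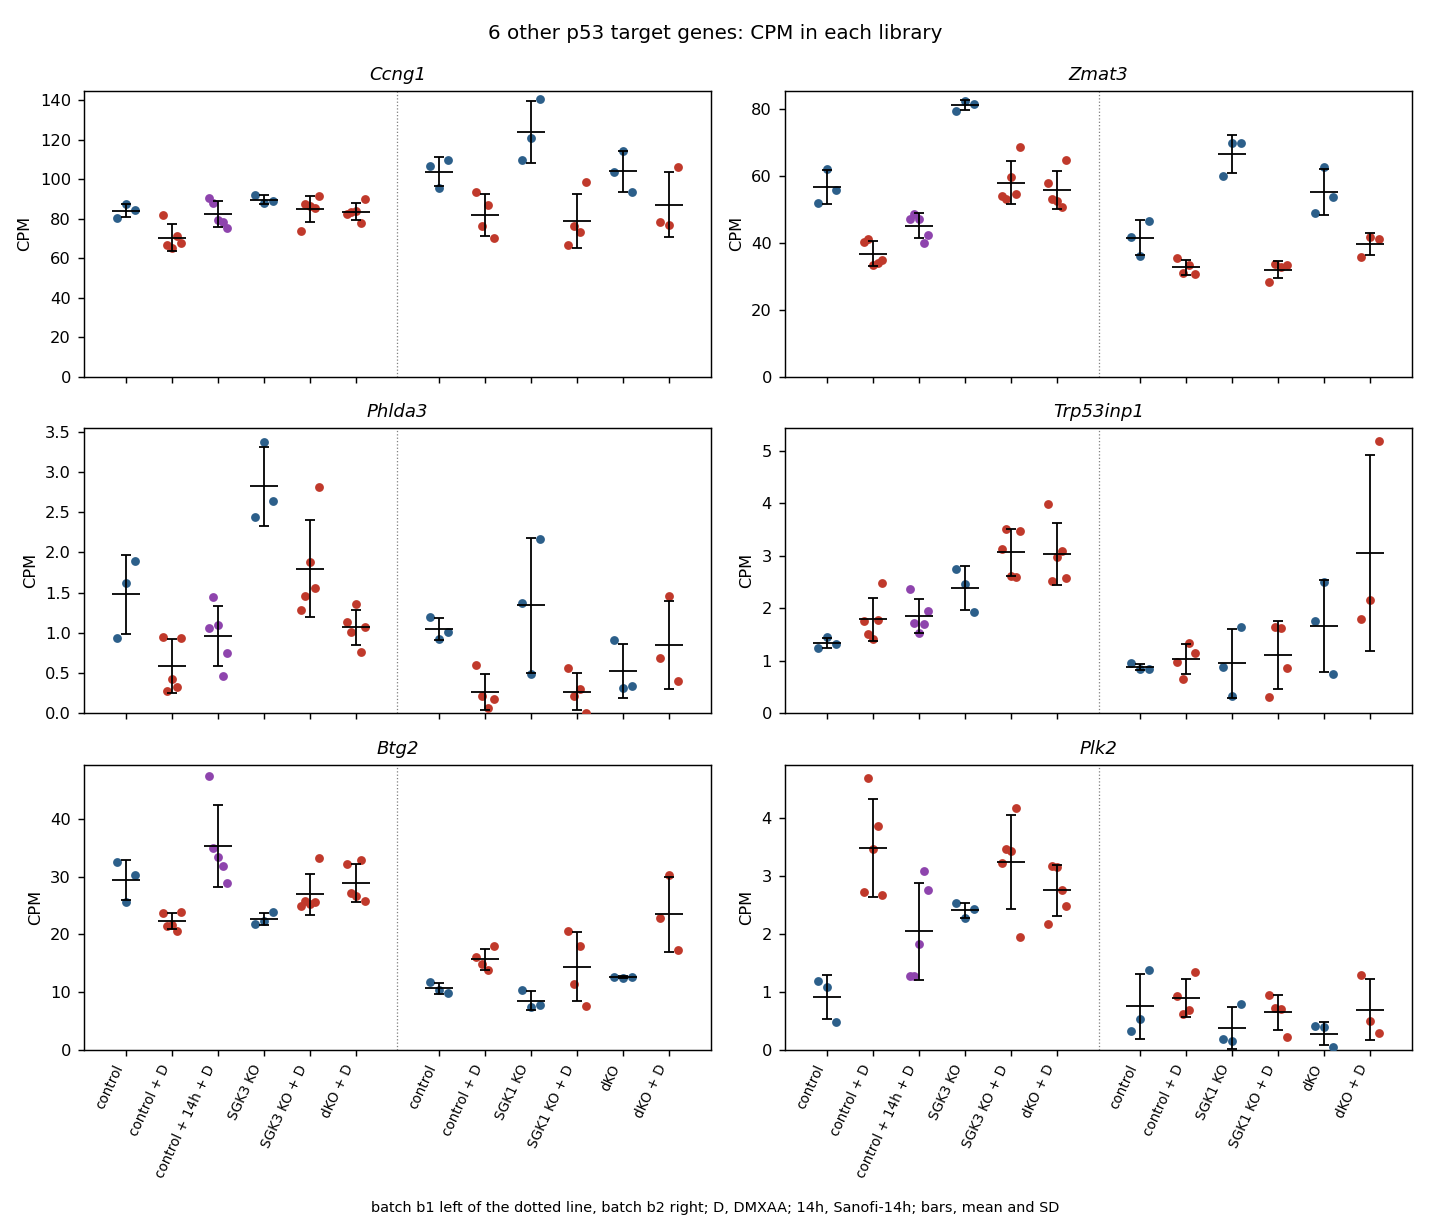
CPM of Ccng1, Zmat3, Phlda3, Trp53inp1, Btg2 and Plk2 in each library (points; blue at rest, red with DMXAA, purple with Sanofi-14h before DMXAA), with the mean and SD of each group; b1 is left of the dotted line and b2 right. Zmat3 is lower with DMXAA in each line and higher in SGK3 KO and dKO cells than in control cells of b1, and Btg2 of control cells moves down with DMXAA in b1 and up in b2.

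Eda2r was close to absent from control and SGK3 KO cells and present in dKO cells, in resting SGK1 KO cells and in some SGK1 KO libraries with DMXAA. It encodes a receptor of the tumour necrosis factor family for the ectodysplasin isoform EDA-A2. In b1 its counts were 0, 4 and 0 in resting control libraries, 10, 0, 0, 0 and 20 in control libraries with DMXAA, 21, 11, 16, 4 and 0 with Sanofi-14h, 9, 5 and 4 in resting SGK3 KO libraries and 0, 4, 12, 16 and 7 in SGK3 KO libraries with DMXAA. The 5 dKO libraries held 220, 100, 124, 87 and 249 counts, or 1.05, 0.859, 0.858, 0.608 and 1.49 TPM, above every other library of b1. Eda2r was higher in dKO than in control cells by 4.62 ± 0.94 (edgeR adjusted p = 0.000507) and than in SGK3 KO cells by 4.28 ± 0.91 (edgeR adjusted p = 0.00373). These log2 values rest on near-empty comparison groups, so their size depends on the small count added in the fit. No library left out ended either call.

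In b2 the dKO libraries held 86, 67 and 76 counts at rest and 23, 98 and 249 with DMXAA, against 7, 16 and 0 and 0, 11, 0 and 20 in control cells. Both dKO groups were above their controls, by 3.03 ± 1.5 at rest (edgeR adjusted p = 0.504) and 3.85 ± 1.38 with DMXAA (edgeR adjusted p = 0.0762); neither passed, and DESeq2 called the second (3.90). SGK1 KO libraries held 87, 59 and 155 counts at rest, above every resting control library, and did not pass (3.48 ± 1.53, edgeR adjusted p = 0.151). With DMXAA they held 10, 46, 92 and 0, overlapping the controls (1.82 ± 1.26, edgeR adjusted p = 0.427). The change of SGK1 KO cells with DMXAA did not pass (−1.71 ± 1.28, edgeR adjusted p = 0.433). At rest the mean was 1.25 CPM in SGK1 KO and 0.913 CPM in dKO cells. In b3, dKO libraries V and W held 130 and 113 counts and SGK1 KO library S 200, against 4 in J. The dKO difference from control cells under DMXAA did not pass a test between b2 and b1 (−0.78 ± 1.62, edgeR adjusted p = 0.866).

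**Figure D3:**
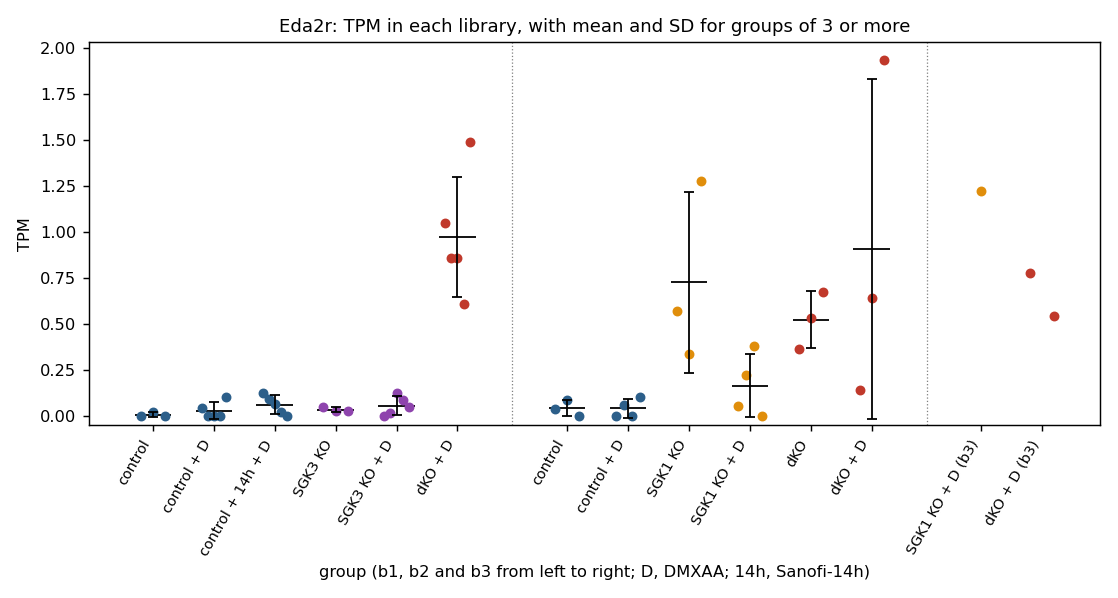
Eda2r level (TPM) in each library (points; blue control, purple SGK3 KO, orange SGK1 KO, red dKO), with the mean and SD of groups of 3 or more; b1, b2 and b3 run from left to right. The b1 dKO libraries run from 0.608 to 1.49 TPM, above all other b1 libraries, and the control libraries of both batches stay at or below 0.123 TPM.

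Counted over the 10 genes, the DMXAA response of b1 control cells called 8 of 10, where 35.3% of the 16947 genes tested were called. Of the 8, 4 were up (Trp53, Mdm2, Cdkn1a and Plk2) and 4 down (Ccng1, Phlda3, Zmat3 and Btg2). With this split the median of 0.52 only marks a point between Trp53inp1 (0.42, not called) and Mdm2 (0.62), against 0.0023 over all genes. The median was 0.31 in the SGK3 KO response. In b2 it was 0.11 in control, −0.093 in SGK1 KO and 0.57 in dKO cells. In SGK3 KO cells 4 of 10 were called, 3 up (Trp53, Mdm2 and Cdkn1a) and 1 down (Zmat3), beside 30.1% of all genes. For the difference between these responses edgeR called 0 of 10, beside 1.04% of all genes. At an unadjusted p below 0.05 it would be 4 (Trp53, Cdkn1a, Plk2 and Btg2), DESeq2 called 3 and the fit of TPM 0.

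In b2 the control response called 1 of 10 (Mdm2), where 3.98% of 16622 genes were called. SGK1 KO cells had 2 up (Trp53 and Mdm2) and 3 down (Cdkn1a, Ccng1 and Zmat3) beside 11.2% of all genes, and dKO cells 2 up (Mdm2 and Btg2) and 1 down (Zmat3) beside 6.76%. The SGK1 KO response differed from the control response in 1 of 10 (Zmat3), beside 0.451% of all genes. For the dKO response edgeR called 0 of 10 as different from the control response, 0 also at an unadjusted p below 0.05 and with DESeq2 or the fit of TPM, beside 0.782% of all genes. Between the batches the control response differed in 2 of 10 (Cdkn1a and Btg2), beside 3.21% of 18315 genes.

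Between genotypes, SGK3 KO cells at rest had 4 of 10 up (Mdm2, Zmat3, Plk2 and Trp53inp1) and 0 down, beside 10.4% of all genes. With DMXAA they had 5 up (Mdm2, Ccng1, Phlda3, Zmat3 and Trp53inp1) and 1 down (Cdkn1a), beside 22.9%. The b1 dKO cells had 6 up (Ccng1, Phlda3, Zmat3, Btg2, Trp53inp1 and Eda2r) and 2 down (Trp53 and Cdkn1a), beside 26.4%. Sanofi-14h gave 3 up (Ccng1, Zmat3 and Btg2) and 3 down (Trp53, Cdkn1a and Plk2), beside 20.8%. These comparisons with DMXAA share their 5 control libraries, so their values are not independent of one another. Set against SGK3 KO cells, dKO cells differed in 1 of 10 (Eda2r), beside 5.06% of all genes. The other genes had dKO minus SGK3 KO differences of −0.75 (Phlda3) to 0.1 (Btg2).

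Many of the b1 calls were not made when both batches were fitted together. The joint fit of 46 libraries had a common biological coefficient of variation of 0.317, and 17 b1 calls were lost in it. These were Ccng1, Phlda3 and Btg2 in the control response, Mdm2, Plk2 and Trp53inp1 in SGK3 KO at rest, and Mdm2, Cdkn1a, Ccng1 and Trp53inp1 in SGK3 KO with DMXAA. The others were Phlda3, Trp53, Ccng1, Btg2 and Trp53inp1 in dKO with DMXAA, and Ccng1 and Plk2 with Sanofi-14h.

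In b2, SGK1 KO cells at rest had 1 of 10 up (Zmat3) and 1 down (Cdkn1a), beside 6.43% of all genes, and with DMXAA 1 down (Cdkn1a) beside 8.72%. For dKO cells at rest edgeR called 0 of 10 beside 3.03%; at an unadjusted p below 0.05 it would be 2 (Cdkn1a and Zmat3), and DESeq2 called 1 and the fit of TPM 0. With DMXAA dKO cells had 1 down (Cdkn1a), beside 12.8%. The dKO difference under DMXAA was compared between the batches, where edgeR called 0 of 10 beside 7.27% of all genes; 2 (Cdkn1a and Zmat3) had an unadjusted p below 0.05, and DESeq2 and the fit of TPM called 0.

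**Figure D4:**
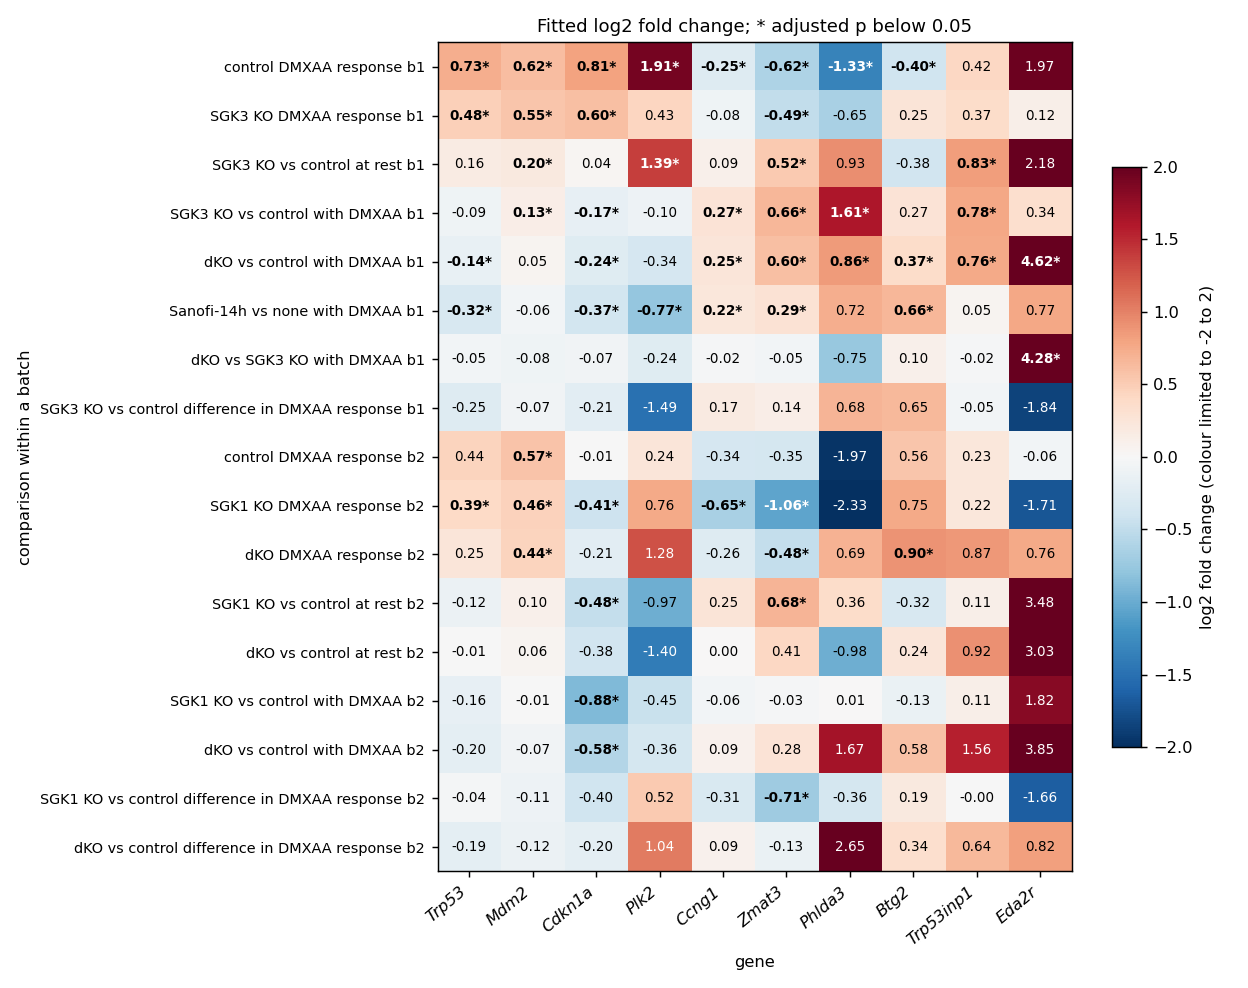
Fitted log2 fold change of each gene (columns) in the 17 comparisons made within a batch (rows), with asterisks and bold type where the edgeR adjusted p was below 0.05; colour is limited to −2 to 2. In the top row Trp53, Mdm2, Cdkn1a and Plk2 are up (0.73, 0.62, 0.81 and 1.91) and Ccng1, Zmat3, Phlda3 and Btg2 down, and the Eda2r column is highest for dKO cells of b1 against control (4.62) and SGK3 KO cells (4.28) with DMXAA.

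Beyond the 10 genes, 35 other p53 targets were listed, of which 33 were tested in b1 and 34 in b2. With DMXAA in b1 control cells 11 were up, 10 down and 12 did not pass, with a median of 0.011, where 35.3% of all genes tested were called. The largest changes were in Bbc3, which encodes the cell death protein PUMA (3.11 ± 0.071), Sertad1 (2.7 ± 0.12), the death receptor gene Fas (1.68 ± 0.36) and Pmaip1, which encodes NOXA (1.54 ± 0.085). Bbc3 had the largest called change of the list in each line: it rose by 2.88 ± 0.07 in SGK3 KO cells of b1 and, in b2, by 3.75 ± 0.24 in control, 3.97 ± 0.24 in SGK1 KO and 3.12 ± 0.24 in dKO cells. Bax, the pore-forming partner of the same death pathway, did not pass in control cells of b1 (−0.038 ± 0.047, edgeR adjusted p = 0.604) or b2 (0.078 ± 0.27, edgeR adjusted p = 1).

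In b2 the same list had 6 up and 0 down in control cells, 8 up and 6 down in SGK1 KO cells and 6 up and 4 down in dKO cells, where 3.98%, 11.2% and 6.76% of all genes were called. Between genotypes in b1, SGK3 KO cells had 3 up and 2 down at rest and 7 up and 4 down with DMXAA; dKO cells had 7 up and 6 down, and Sanofi-14h 7 up and 6 down. In these 4 comparisons 10.4%, 22.9%, 26.4% and 20.8% of all genes were called. Tap1, a peptide transporter gene that interferon also raises, was lower than in control cells in each knockout line, at rest and with DMXAA, with log2 differences of −0.80 (SGK1 KO at rest) to −1.66 (dKO of b2 with DMXAA), each called. Rap2b, which encodes a small GTPase, was higher with DMXAA in SGK3 KO (0.94 ± 0.058) and dKO cells (0.76 ± 0.058) of b1 and in dKO cells of b2 (0.54 ± 0.094).

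Of 25 regulators and cofactors of p53, 24 were tested. With DMXAA in b1 control cells 8 were up and 2 down, a share near the 35.3% of all genes called, led by the histone chaperone gene Daxx (1.54 ± 0.084), the DNA damage kinase gene Atm (1.31 ± 0.086) and the deacetylase gene Sirt1 (1.28 ± 0.069). Daxx was lower than in control cells with DMXAA in SGK3 KO (−1.17 ± 0.069), dKO (−1.35 ± 0.07) and Sanofi-14h (−1.3 ± 0.07) libraries of b1 and in SGK1 KO (−0.78 ± 0.13) and dKO (−0.85 ± 0.15) libraries of b2. Atm was lower too in b1 (−0.53, −0.61 and −0.71) and did not pass in b2 (0.43 and 0.21). Mdm4, the MDM2 relative that blocks p53 without degrading it, did not pass in b1 control cells with DMXAA (−0.071 ± 0.083, edgeR adjusted p = 0.577). Cdkn2a, whose ARF product inhibits MDM2, was listed at 0 in every library of b1 and b2, as was the p53 relative Trp63, and neither Trp63 nor Trp73 was tested.

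Genes that p21 lowers through the DREAM repressor complex, mostly of the G2 and M phases, were tested as a list of 16. With DMXAA in b1 control cells 7 were up and 3 down, Mybl2 most (1.3 ± 0.061), beside 35.3% of all genes called. Compared with control cells, SGK3 KO cells had 0 up and 4 down at rest and 0 up and 8 down with DMXAA, beside 10.4% and 22.9% of all genes. The dKO cells of b1 had 0 up and 9 down, with a median of −0.14 (Cks2 −0.35 ± 0.055, Ccnb1 −0.24 ± 0.039), and Sanofi-14h libraries 1 up and 5 down (Mybl2 −0.68 ± 0.05), beside 26.4% and 20.8% of all genes. The SGK1 KO cells of b2 had 0 up and 1 down at rest and 0 up and 3 down with DMXAA. There 6.43% and 8.72% of all genes were called. In dKO cells of b2, 0 passed at rest and 1 was down with DMXAA, beside 3.03% and 12.8% of all genes. Cdkn1a itself was lower in the 3 b1 comparisons made with DMXAA and in both of those in b2. A link between Cdkn1a and the list was not tested. Of the other genes for CDK inhibitors 3 were tested. With DMXAA in b1 control cells 1 was up, 1 down and 1 did not pass (median −0.14), beside 35.3% of all genes. In b2 control cells 1 was up, 0 down and 2 did not pass, beside 3.98%. Cdkn1b, which encodes p27, rose with DMXAA by 0.66 ± 0.071 in b1 and 1.09 ± 0.085 in b2 control cells.

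Relatives of the 10 genes moved in both directions. Of 18 listed paralogs 12 were tested, and with DMXAA in b1 control cells 6 were up and 2 down, where 35.3% of all genes were called. Phlda1 (2.57 ± 0.25) rose where Phlda3 fell, and Ccng2 (1.20 ± 0.10) rose where Ccng1 fell, while Plk3 (1.33 ± 0.11) rose as Plk2 did and Btg1 (−0.98) fell as Btg2 did. Btg1 was not among the 4 largest changes and was named after its value was seen. In b2 control cells Btg1 fell (−0.43 ± 0.075). Among 14 immediate early genes, which respond to signals within minutes, 11 were up and 2 down in b1 control cells with DMXAA, with a median of 1.49 (Egr1 5.05 ± 0.18), beside the same 35.3%. In b2 control cells 5 were up and 1 down, with a median of 0.78 (Egr1 3.25 ± 0.16), beside 3.98% of all genes.

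Over the 46 libraries, after each batch's mean was subtracted, the 10 genes moved together in part. Across their 45 pairs the correlation of log2 CPM ranged from −0.68 to 0.81 with a median of 0.12; 8 pairs were above 0.5 and 4 below −0.5. Trp53 and Mdm2 were the closest pair (r = 0.81), followed by Ccng1 and Zmat3 (r = 0.79), and Trp53 and Ccng1 were the most opposed (r = −0.68). Trp53 with Cdkn1a had r = 0.94 over the 26 libraries of b1 and r = 0.27 over the 20 of b2, and Mdm2 with Cdkn1a r = 0.85 and r = −0.26. These libraries share genotypes, treatments and, in b2, a trend with transcript length, so the values are descriptive. The genes most like each member, among 11984 protein-coding genes, were Anxa7 (r = 0.924), Ik (r = 0.924) and Polr2g (r = 0.923) for Trp53, Etv1 (r = 0.944), Skil (r = 0.939) and Zcchc2 (r = 0.937) for Mdm2 and H3f3b (r = 0.823), Nop2 (r = 0.821) and Marchf5 (r = 0.818) for Cdkn1a. For Zmat3 they were Plec (r = 0.927), Acap3 (r = 0.923) and Myo1c (r = 0.886), and for Eda2r Zfp992 (r = 0.814), Hoxc4 (r = 0.799) and Sec16b (r = 0.796). The remaining nearest genes were Atl3 for Ccng1 (r = 0.820), Irf2bp1 for Phlda3 (r = 0.751), Cpne8 for Plk2 (r = 0.698), Rpain for Btg2 (r = 0.806) and Spry2 for Trp53inp1 (r = 0.766).

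**Figure D5:**
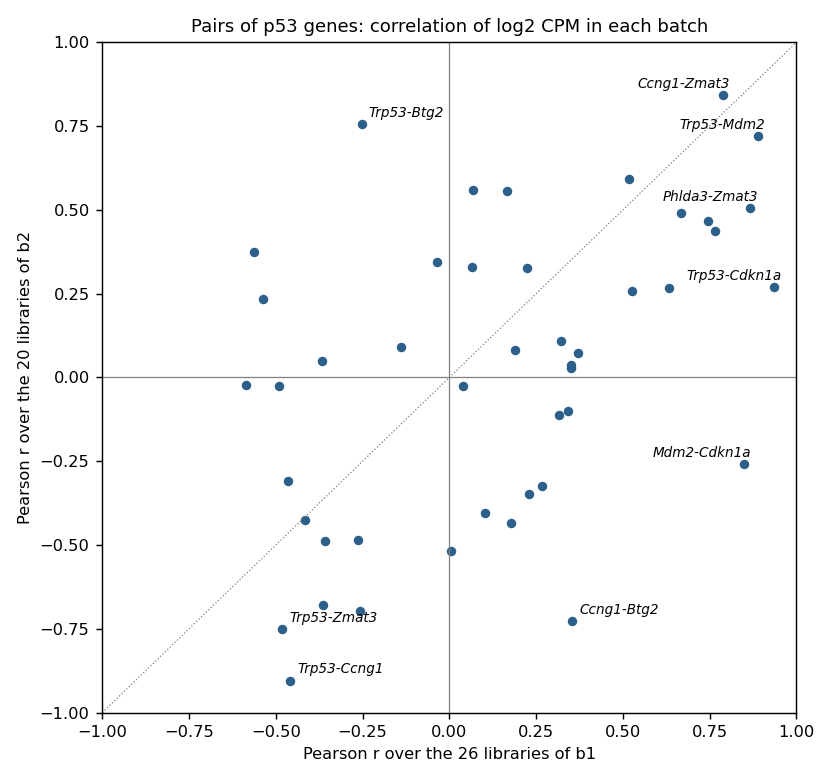
Pearson correlation of log2 CPM for each of the 45 pairs of genes, over the 26 libraries of b1 (horizontal axis) and the 20 libraries of b2 (vertical axis); the dotted line marks equal values. Trp53 with Mdm2 is high in both batches (0.89 and 0.72), while Mdm2 with Cdkn1a is 0.85 in b1 and −0.26 in b2.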

How the data were processed

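Libraries were made from poly(A)-enriched RNA. Per the submitters' processing notes, STAR 2.7.9a and StringTie 2.2.0 were used with GRCm39; the annotation is GENCODE M27 by the deposited tables' names. How reads were turned into the deposited estimated counts, which are whole numbers, is not given in the sources used here; rounding on loading changed none. The deposited TPM were computed by the authors.

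Estimated counts were tested with edgeR 4.0.16 (R 4.3.3; filterByExpr, TMM scaling, robust quasi-likelihood) over all groups of a batch, on 16947 genes in b1, 16622 in b2 and 18315 in the joint fit of 46 libraries, with Benjamini-Hochberg adjustment over all genes tested and a threshold of 0.05. This script was tested on simulated data. CPM of b3 were scaled with b2. No rows lacked a gene name. Alternatives were DESeq2 1.42.0, limma 3.58.1 on log2(TPM + 0.5), other scaling or filters, other sets of libraries and a replicate block. The 10 genes and the context lists were chosen with earlier results of these data known. Listed genes were named when among the 4 largest called changes, with Bbc3, Bax, Mdm4, Cdkn2a and Atm always.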

Additional observations from a re-analysis of the deposited data

Results flagged for a closer look

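Btg2 in SGK3 KO cells of b1 with DMXAA had 1 library far from the other 4: replicate 5 held 33.3 CPM, and the next highest 25.8 CPM. In this way 60 sets of 4 or 5 values were examined, each of 1 gene in 1 group, and sets of the same group share libraries. This was the only value marked, and chance alone marks about 1 set in 20.

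The response to DMXAA differed between groups by a test of the difference for 3 genes. The Zmat3 response of SGK1 KO cells minus that of control cells in b2 was −0.71 on the log2 scale (edgeR adjusted p = 0.0375). In that comparison 0.451% of all genes were called, and the Zmat3 call was lost in 11 of 14 fits that left out 1 library. The Cdkn1a response of control cells in b2 minus that in b1 was −0.81 (edgeR adjusted p = 0.000169). For Btg2 the same difference was 0.97 (edgeR adjusted p = 0.0367), a call lost in 9 of 15 fits that left out 1 library. Between the batches 3.21% of all genes were called.

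The b3 libraries, which enter only the alternative that adds S, V and W to b2, held values above every control library of b2 for 5 genes. How many of all genes lay above the controls in this way was not counted, so the 5 are not a result about the p53 genes. For Trp53, V held 301 CPM, W 288 CPM, S 291 CPM and J 286 CPM, against at most 263 CPM in the controls. Btg2 was at 20.1 CPM in V, 21.2 CPM in W and 21.8 CPM in S, with controls up to 18 CPM. Eda2r was at 1.51 CPM in V, 1.39 CPM in W and 2.23 CPM in S, with controls up to 0.261 CPM. Trp53inp1 reached 1.96 CPM in V and 1.65 CPM in J (controls up to 1.34 CPM), and Phlda3 1.56 CPM in S (controls up to 1.19 CPM). A run that differs from b2 and a difference in the cells cannot be told apart here.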

How the results depend on the processing

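Across 3209 recomputed values of single genes none changed direction past the threshold; 3027 kept their side of it, 125 were no longer called and 57 became called. Of 53 calls, 23 held under each alternative run. Counts of genes called among the 10 moved by more than 1.5 times as follows. In the joint fit of both batches, whose spread was pooled: control response 5 in b1 and 4 in b2, SGK3 KO against control 1 at rest and 2 with DMXAA, dKO against control with DMXAA 3 in b1 and 4 in b2, and dKO against control at rest 2. With DESeq2: SGK3 KO difference of responses 3, control response in b2 2, dKO against control in b2 1 at rest and 3 with DMXAA. With RLE size factors, the control response in b2 gave 2. With limma on TPM: SGK3 KO at rest 2, dKO response 0, SGK1 KO at rest 1, dKO against control with DMXAA in b2 2, SGK1 KO difference of responses 0. With no filter: SGK1 KO response 3, SGK1 KO at rest 1, its difference of responses 0, control response between batches 1. With the groups compared alone, where fewer libraries set the spread: SGK3 KO at rest 7 and difference of responses 2, control response in b2 3, SGK1 KO response 2 and at rest 1, dKO response 1, dKO against control in b2 1 at rest and 2 with DMXAA. With b3 added: SGK1 KO at rest 1 and with DMXAA 0, its difference of responses 0, dKO with DMXAA 0. Without the length-trend libraries: control response in b2 5, SGK1 KO at rest 0 and difference of responses 0 (both with D as the only resting SGK1 KO library), dKO against control in b2 1 at rest and 2 with DMXAA. The cause of these shifts was not tested. Shares of all genes called in the same fits, and in the leave-one-out fits below, are not set beside these counts. A shift in the 10 genes and a shift in all genes therefore cannot be told apart here.

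Leaving out 1 library at a time gave 2 to 5 for SGK3 KO at rest, 0 to 1 for its difference of responses, 3 to 5 for the SGK1 KO response, 1 to 3 for the dKO response, 1 to 2 for SGK1 KO at rest, 0 to 1 for dKO at rest in b2, 0 to 1 for the SGK1 KO difference of responses, 1 to 2 for the control response between batches and 0 to 1 for the dKO difference between batches. In b1 the replicate numbers did not pair the libraries (57 same-number pairs, r from −0.24 to 0.18, median 0.0069). A replicate block there left the counts at 8, 4, 4, 6, 8, 6, 1 and 0 for the control response, the SGK3 KO response, SGK3 KO at rest and with DMXAA, dKO, Sanofi-14h, dKO against SGK3 KO and the difference of responses. It changed no other call. No paired analysis was possible in b2 because its libraries carry letters that differ between groups. Low counts limit Phlda3, Plk2, Trp53inp1 and Eda2r, with standard errors up to 2.02 on the log2 scale.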
